A study of Mus musculus with 18 samples.

Results

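The PRDM genes encode proteins with a PR domain, and 9 of them were followed across splenic tumours taken from Eμ-Myc mice at end stage: Prdm11, Prdm1, Prdm2, Prdm4, Prdm6, Prdm8, Prdm10, Prdm15 and Prdm16. They were picked by gene symbol, through 10 array probe sets that carry a single symbol, out of 19938 genes measured, and each gene was represented by its brightest probe set. Prdm11 (probe set 10485191) is on mouse chromosome 2, Prdm1 and Prdm4 are on 10, Prdm2 and Prdm16 on 4, Prdm8 on 5, Prdm10 on 9 and Prdm15 on 16. Of the tumours, 9 came from Prdm11 knockout (KO) mice and 9 from Prdm11 wild-type (WT) mice, 18 in all, with 1 array per tumour and 1 mouse per tumour. Both genotypes carried the Eμ-Myc transgene, which puts Myc under the enhancer of the immunoglobulin heavy chain and so acts in B lineage cells, and both were on the background that the labels give as C57BL/6. Tumours were frozen whole and their RNA was taken from the homogenised tissue, with no sorting named in the labels, so other cells of the spleen contribute to every value. The sources used here do not give the ages of the mice or which part of Prdm11 was deleted.

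The PR domain is related to the SET domain of histone methyltransferases, and most PRDM proteins join it to zinc fingers that bind DNA. Family members work as transcriptional regulators, often as repressors that recruit chromatin enzymes, and several decide cell identity. In the B lineage the best known is Prdm1, whose product Blimp-1 shuts off the B cell programme and drives plasma cell differentiation. Loss of Prdm11 is known to speed lymphoma in Eμ-Myc mice, which is the setting of these tumours.

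The promoters of Prdm11, the gene that defines the genotypes, and of Prdm4, the member with the largest difference between them, are shown as the 250 bases before the annotated start, from RefSeq on GRCm38.p6. Capitals mark the GC box, GGGCGG on either strand. The Prdm11 window lies at chr2:93046166-93046415 and the Prdm4 window at chr10:85916987-85917236, both on the minus strand and both printed 5′ to 3′.
Prdm11: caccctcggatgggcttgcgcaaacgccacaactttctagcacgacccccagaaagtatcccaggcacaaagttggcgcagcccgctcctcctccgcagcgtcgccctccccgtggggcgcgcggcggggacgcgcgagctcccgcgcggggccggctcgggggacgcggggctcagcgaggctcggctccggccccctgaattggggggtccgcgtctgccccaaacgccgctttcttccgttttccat
Prdm4: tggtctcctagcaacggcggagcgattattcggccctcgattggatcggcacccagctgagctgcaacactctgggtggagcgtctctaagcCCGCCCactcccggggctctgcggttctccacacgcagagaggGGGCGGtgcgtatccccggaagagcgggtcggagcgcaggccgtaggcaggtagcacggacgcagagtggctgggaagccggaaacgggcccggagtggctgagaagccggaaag
The Prdm4 window held 2 GC boxes and the Prdm11 window 0, at a GC content of 66.4% for Prdm4 and 70.8% for Prdm11, against a median of 52.4% over all 32851 promoter windows. The E-box CACGTG, which MYC with its partner MAX binds and which reads the same on both strands, was in 0 of the 10 windows found for 7 members, and in 6.02% of all windows. The GC box was in 32.7% of all windows and TATAAA, on either strand, in 12.4%. No match of one of these motifs overlapped a match of another in the members' windows. The Prdm4 window shown is the one at the outermost of its 2 annotated starts, and the other, at chr10:85916730-85916979, held 3 GC boxes at a GC content of 75.6%. Prdm2 and Prdm6 had no window in the table used.

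Levels are log2 probe set intensities, and differences are KO minus WT on that scale. A brighter probe set does not mean more transcript, since probes differ in how well they bind, so the genes are not ranked by amount. As a measure of dim signal, each member was set beside 1027 olfactory receptor genes, a family that blood tissue is not known to use, whose median level over the tumours was 3.53 and whose 95th percentile was 5.06. Of the 9 members, 6 lay above that percentile, as did 60.0% of all genes. Prdm1 (mean 4.35), Prdm6 (4.89) and Prdm8 (5.002) lay below it, and Prdm15 (5.11), Prdm11 (5.27) and Prdm16 (5.28) lay just above. Prdm2, with a mean of 6.41, stood furthest from this dim range, followed by Prdm4 with 5.72 and Prdm10 with 5.38. The median gene of the array had a level of 5.39, so 7 of the 9 members lay below it. Tumour to tumour spread, as SD within genotype, was below the median gene's 0.25 for 8 of the 9 members, Prdm2 being the exception at 0.33. Among the 8, Prdm4, Prdm11 and Prdm1 lay close to the median gene, at percentiles 49.8, 46.1 and 45.8 of all genes by SD.

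**Figure D1:**
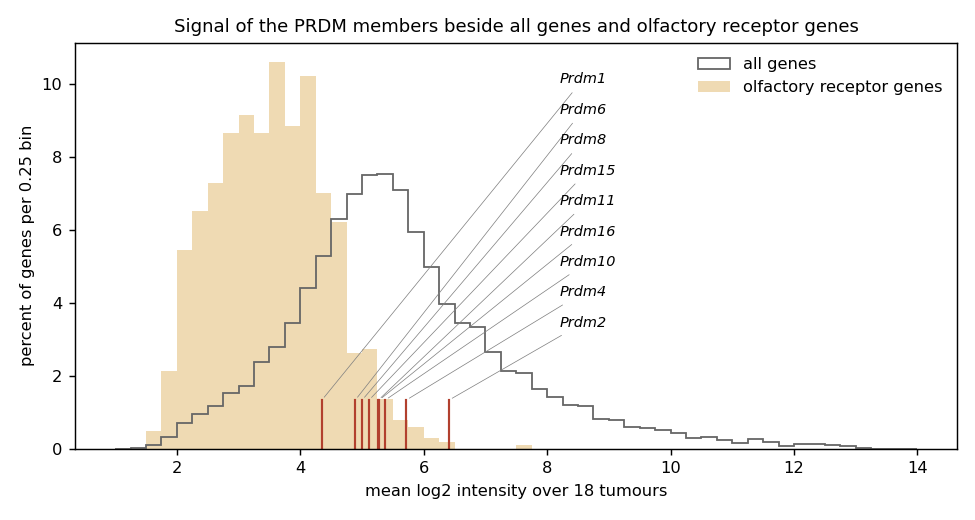
Distribution of mean log2 intensity over the 18 tumours for all genes (outline) and for olfactory receptor genes (filled), as percent of genes per 0.25 bin, with red ticks for the 9 PRDM members. Prdm1, Prdm6 and Prdm8 lie below 5.06, the 95th percentile of the olfactory receptor genes, and Prdm2 at 6.41 is the member furthest to the right.

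The 5 of 6 B cell markers that were measured averaged 7.06 to 8.64 in KO tumours and 6.55 to 8.28 in WT tumours, above the median gene's level of 5.39. On the linear scale, arrays had medians between 35.3 and 41.7. The array of WT tumour 3 stood apart: its correlation with other arrays had a median of 0.924, where all others had 0.957 to 0.976, and it touched the PRDM values directly. It had the highest level of Prdm6, Prdm8, Prdm15 and Prdm16 and the lowest of Prdm2 and Prdm4 among all 18 tumours. Its median over the olfactory receptor genes was 3.95, the highest of the WT tumours, which went down to 3.40, while KO tumours ran from 3.38 to 3.77. The part of that array's dim signal in the PRDM values was not tested.

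Prdm11 itself gave overlapping levels in the 2 genotypes. Its lowest, median and highest levels were 4.87, 5.21 and 5.49 in KO tumours, against 4.84, 5.33 and 5.66 in WT tumours. The lowest level of all was in WT tumour 9 and the highest in WT tumour 7, and the WT median exceeded 6 of 9 KO tumours. The means were 5.21 ± 0.23 in KO tumours and 5.33 ± 0.26 in WT tumours (SD, n = 9 each). The difference of -0.12 had a 95% interval of -0.36 to 0.12 in limma and a two-sided exact permutation p of 0.311. The limma adjusted p over all genes was 0.868. When single tumours were left out, the difference was between -0.18, with WT tumour 9 removed, and -0.08, with KO tumour 1 removed, and the exact permutation p was between 0.103 and 0.503. The data hold 1 probe set for Prdm11, whose place relative to the deleted part the sources used here do not state, so its level does not check the genotype labels. Between tumours, within genotype, the genes that followed Prdm11 most closely out of all genes were Map3k13, a kinase of stress signalling, with Pearson r = 0.92, the ephrin ligand Efna4 (0.87), the receptor kinase Mst1r (0.86), the trace amine receptor Taar7b (0.86) and the splicing regulator Srrm3 (0.85), each over 18 tumours. These are the 5 highest of all genes measured, so the values describe the choice and carry no test, and 4 of the 5, all but Srrm3, had mean levels between 4.37 and 5.07, in or near the dim range.

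**Figure D2:**
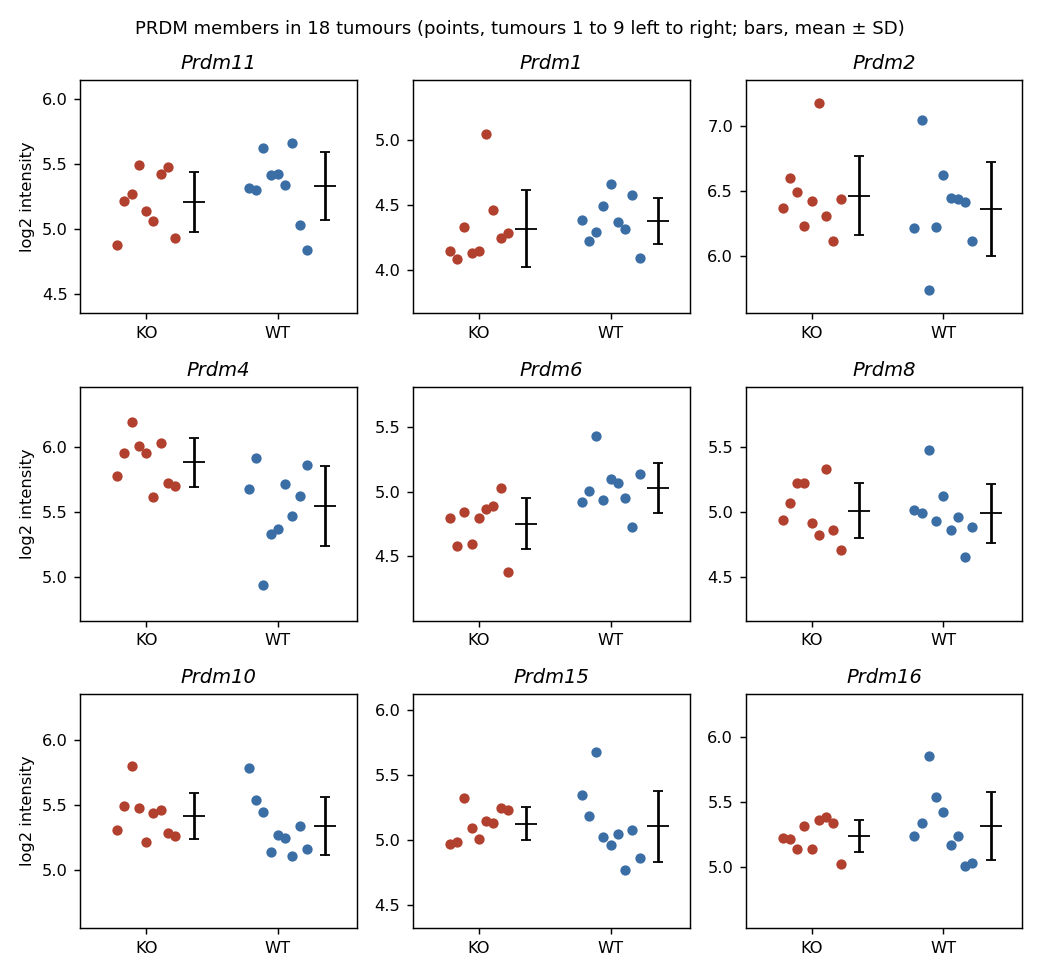
Log2 intensity of each PRDM member in the 9 KO tumours (red, left) and the 9 WT tumours (blue, right), each point 1 tumour in order of its number, with bars for mean ± SD. All vertical axes span the same 1.8 log2 units. The genotypes overlap for all 9 members, with 8 of 9 KO tumours above the WT median for Prdm4 and 8 of 9 below it for Prdm6. The share of all genes that overlap is not given here, so the overlap is not read as a trait of the members.

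Of the 9 members, 0 passed the limma threshold of an adjusted p below 0.05 over all genes, where 1 of 19938 genes passed, or 0.00502%. At an unadjusted p below 0.05 there were 2 members, Prdm4 higher and Prdm6 lower in KO tumours, against 6.7% of all genes in either direction. By direction, the share of all genes was 2.83% for higher and 3.87% for lower in KO tumours. Of the members, 5 had positive and 4 had negative differences, with a median of 0.02, against a median of -0.03 over all genes, of which 59.2% were negative. In a bulk tumour, fewer cells that use a gene and less of its RNA per cell cannot be told apart.

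Prdm4, whose product binds the arginine methyltransferase PRMT5 and is known from neural stem cells, had the largest difference. Its lowest, median and highest levels were 5.62, 5.95 and 6.19 in KO tumours, against 4.94, 5.63 and 5.92 in WT tumours. In 8 of 9 KO tumours it was above the WT median, in 5 it was above every WT tumour, and 4 WT tumours were below every KO tumour. The means were 5.89 ± 0.19 in KO tumours and 5.55 ± 0.31 in WT tumours (SD, n = 9 each). The difference was 0.34 (SE 0.12, 95% interval 0.09 to 0.59), a ratio of 1.27, with an unadjusted limma p of 0.00996 and an adjusted p of 0.699 over all genes. Without WT tumour 3, the lowest, it was 0.26 (SE 0.10, unadjusted p = 0.0177 in limma). In all 29 other settings tried, the unadjusted p stayed below 0.05 and the limma adjusted p ran from 0.255 to 0.961. Of 6 measured erythroid markers, none at 0, 0 passed the adjusted limma threshold and 5 were lower in KO tumours at an unadjusted p below 0.05, against 3.87% of all genes. The 6 averaged 6.36 to 7.86 in KO tumours, against 7.24 to 8.93 in WT tumours. Adding that erythroid level to the model, an alternative chosen after seeing the data, the Prdm4 difference was 0.49 (SE 0.13, limma adjusted p = 0.35). With the B cell markers in the model instead, the difference was 0.33 (SE 0.12). Between tumours, Prdm4 followed widely expressed genes most closely, among them Ppp1r7, a regulator of protein phosphatase 1 (r = 0.92 over 18 tumours, centred within genotype), the RNA helicase Mtrex (0.92) and the arginyl-tRNA synthetase Rars (0.91), named after their values were seen and with no test.

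Prdm6, a repressor known from smooth muscle, was the other member below the unadjusted threshold. Its lowest, median and highest levels were 4.38, 4.79 and 5.03 in KO tumours, against 4.73, 5.003 and 5.43 in WT tumours. The WT median exceeded 8 of 9 KO tumours, 3 KO tumours were below every WT tumour, and 4 WT tumours were above every KO tumour. The means were 4.75 ± 0.20 in KO tumours and 5.03 ± 0.19 in WT tumours (SD, n = 9 each). The difference was -0.28 (SE 0.10, 95% interval -0.48 to -0.07), a ratio of 0.826, with an unadjusted limma p of 0.0103 and an adjusted p of 0.699. Without WT tumour 3, the highest, it was -0.23 (SE 0.09, unadjusted p = 0.0197 in limma). Its level lay inside the dim range, where 2.73% of olfactory receptor genes were lower and 0.292% higher in KO tumours at an unadjusted limma p below 0.05, with a median difference of -0.05. Smooth muscle and fibroblast markers, 7 measured, averaged 5.15 to 5.64 in KO tumours and 5.16 to 5.58 in WT tumours. Of the 7, 4 were higher and 3 lower in KO tumours. At an unadjusted limma p below 0.05, 0 were higher and 1 was lower, against 3.87% of all genes lower. That was Lum, named after its value was seen, with a difference of -0.21 (SE 0.09). The part of such cells in the Prdm6 values was not tested.

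**Figure D3:**
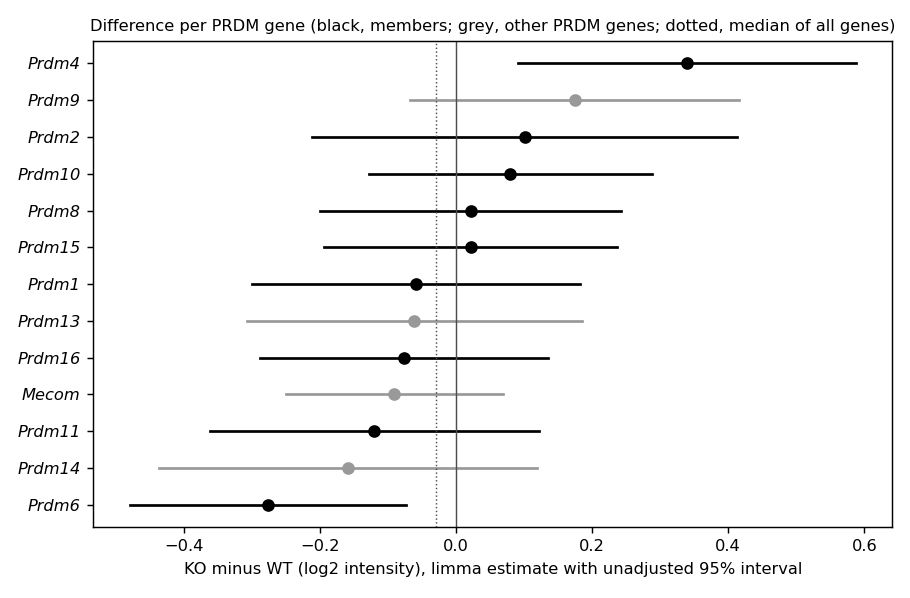
KO minus WT difference in log2 intensity for each PRDM gene, with the unadjusted 95% interval of limma, for the 9 members (black) and the 4 other PRDM genes measured (grey); the dotted line is the median of all genes, -0.03. Only the intervals of Prdm4 (0.09 to 0.59) and Prdm6 (-0.48 to -0.07) leave out 0.

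Prdm1 lay inside the dim range in all 18 tumours, with KO tumour 6 at its upper edge. Its lowest, median and highest levels were 4.09, 4.25 and 5.05 in KO tumours, against 4.09, 4.37 and 4.66 in WT tumours. The highest value was in KO tumour 6, far above the next KO tumour at 4.47. The difference of the means was -0.06 (SE 0.12, 95% interval -0.30 to 0.18, limma adjusted p = 0.942), and without KO tumour 6 it was -0.15, at an SD of 0.13 in the other KO tumours instead of 0.30. The 4 tumours highest in Prdm1 were the 4 with the most T cell marker signal. They were KO tumour 6, with a Prdm1 level of 5.05 and a mean of 7.68 over the 6 measured T cell markers, WT tumour 5 with 4.66 and 7.16, WT tumour 8 with 4.58 and 7.44, and WT tumour 4 with 4.49 and 7.41. The 5 NK cell markers averaged 7.41 in KO tumour 6, 7.11 in WT tumour 5, 6.23 in WT tumour 8 and 7.71 in WT tumour 4, and among the other 14 tumours the highest values were 6.41 in KO tumour 5 and 5.86 in WT tumour 9. This grouping was noticed after the values were seen, and the part of T or NK cells in the Prdm1 level was not tested. In the other 14 tumours the T cell mean ran from 4.95 to 6.32 and Prdm1 from 4.09 to 4.47. Because these tumours form separate clusters no correlation over all 18 is given. Over those 14 tumours, centred within genotype, Pearson r was 0.09 and Spearman rho 0.11 (permutation p = 0.789 and 0.715). Without KO tumours 5 and 7, the 2 farthest from the median, r was 0.04. Taking out the 4 tumours highest in both measures narrowed the range of each. These values therefore cannot decide whether Prdm1 follows T cell signal. Adding the T cell mean to the model, an alternative chosen after seeing the data, the Prdm1 difference between genotypes was 0.02 (SE 0.09, limma adjusted p = 0.963). Blimp-1 is also made by activated T cells, and the closest followers of Prdm1 out of all genes were Ccr9, a chemokine receptor of gut-homing T cells, the myeloid kinase Fgr, the T cell checkpoint receptor Havcr2, the nucleic acid sensor Zbp1 and Filip1l. They were ranked by Pearson r over 18 tumours, which was 0.94 for Ccr9 and 0.85 to 0.88 for the others, while Spearman rho was 0.74 for Ccr9, 0.67 for Fgr, 0.80 for Havcr2, 0.79 for Zbp1 and 0.72 for Filip1l. These 5 were picked as the highest of all genes, carry no test, and span the tumour clusters just described.

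**Figure D4:**
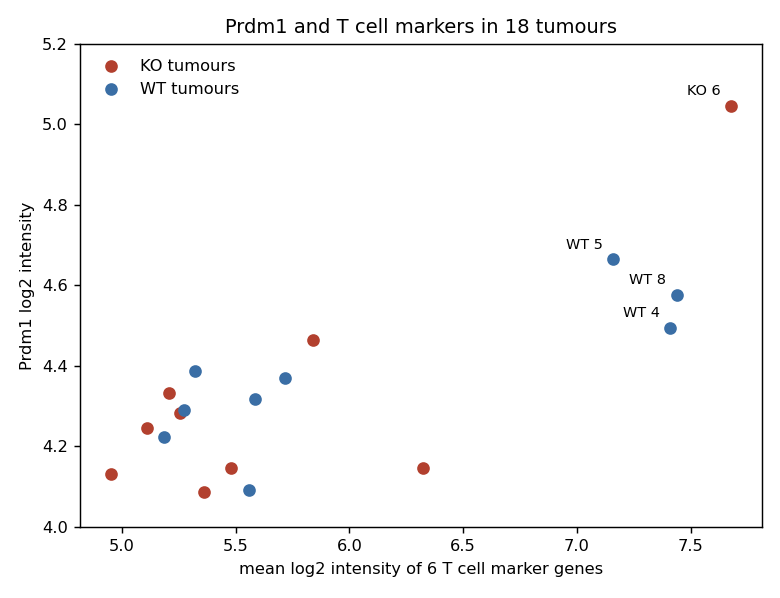
Prdm1 log2 intensity against the mean log2 intensity of 6 T cell marker genes, 1 point per tumour, KO tumours in red and WT tumours in blue. KO tumour 6 and WT tumours 5, 8 and 4 lie to the right, above 7, and hold the 4 highest Prdm1 levels.

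Textbook partners of Blimp-1 were set beside Prdm1. Of 12 plasma cell genes that it works with or that follow it, 0 passed the adjusted limma threshold between genotypes. At an unadjusted p below 0.05, 1 was higher in KO tumours, against 2.83% of all genes, and 1 was lower, against 3.87%. Higher was Slamf7, a surface receptor, and lower was Ell2, the elongation factor of immunoglobulin secretion. Slamf7 averaged 8.38 ± 0.86 in KO tumours and 7.45 ± 0.77 in WT tumours (SD, n = 9 each), a difference of 0.93 with a limma adjusted p of 0.699. Ell2 averaged 7.26 ± 0.56 in KO tumours and 7.87 ± 0.65 in WT tumours, a difference of -0.62 with a limma adjusted p of 0.715. The plasma cell factor Irf4 had a difference of 0.36 (SE 0.19), and the median over the 12 was -0.02. Of 8 B cell genes measured that Blimp-1 is known to repress or oppose, 0 passed the adjusted limma threshold and 2 had an unadjusted p below 0.05, both higher in KO tumours, against 2.83% of all genes. These were Pax5, the factor of B cell identity, with 6.96 ± 0.49 in KO tumours and 6.39 ± 0.59 in WT tumours (SD, n = 9 each), and Bach2, which represses Prdm1 in B cells, with 5.44 ± 0.33 in KO tumours and 5.09 ± 0.40 in WT tumours. The limma adjusted p was 0.699 for Pax5 and 0.721 for Bach2. Spib, a B cell ETS factor, had a difference of 0.20 (SE 0.21), and the median over the 8 genes was 0.19. Of the 5 B cell markers measured, 0 passed the adjusted limma threshold. At an unadjusted p below 0.05, 2 were higher in KO tumours, against 2.83% of all genes. The differences were 0.64 for Cd79a (SE 0.28), 0.48 for Blnk (SE 0.22), 0.19 for Cd22 (SE 0.24), 0.03 for Cd79b (SE 0.19) and -0.80 for Ms4a1 (SE 0.70). The mean over the 5 was 7.79 in KO tumours and 7.69 in WT tumours. The part of these markers, or of the erythroid markers that were lower, in the Pax5 and Bach2 values was not tested.

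Across tumours, centred within genotype, Prdm1 was correlated with each of these 20 genes. Myc, Ciita, Edem1, Xbp1 and Bcl6 are named here after their values were seen. Of the 20 pairs, 5 had a permutation p below 0.05 after Benjamini-Hochberg adjustment by Pearson r and 0 by Spearman rho. The share of all genes that reach such values with Prdm1 is not given here. The count of 5 is therefore not read as particular to these genes. Positive were Edem1 (r = 0.73, rho = 0.60), the MHC class II activator Ciita (r = 0.73, rho = 0.42), Ell2 (r = 0.61, rho = 0.60) and Xbp1, the secretory pathway factor (r = 0.60, rho = 0.61). Negative was Myc (r = -0.60, rho = -0.50). Myc and Ciita are both among the genes that Blimp-1 represses, and Bcl6, of the same list, had r = 0.57 (rho = 0.20). All tumours carried the Eμ-Myc transgene, and the part of the transgene, or of tumour cell content, in the Myc values was not tested. The permutation p adjusted over 20 pairs was 0.0346 by r for Edem1, Ell2, Xbp1 and Myc and 0.0373 for Ciita, and by rho 0.0784 for Edem1, Ell2 and Xbp1, 0.244 for Ciita and 0.176 for Myc. Without KO tumour 6 and WT tumour 5, the 2 farthest from the median of Prdm1, r was 0.51 for Edem1, 0.40 for Ciita, 0.61 for Ell2, 0.56 for Xbp1 and -0.43 for Myc. Without KO tumour 6 alone, 0 of the 20 pairs passed. The 4 tumours with the most T cell marker signal also held the highest Prdm1 levels, and they stand as a cluster in these correlations. WT tumours 4 and 8, of that cluster, stayed in when KO tumour 6 and WT tumour 5 were left out. The part of this clustering in the Prdm1 pairs was not tested.

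Prdm2, also called RIZ, a histone methyltransferase that binds the retinoblastoma protein, was the one member with 2 probe sets. On the brighter one the lowest, median and highest levels were 6.12, 6.42 and 7.18 in KO tumours, against 5.74, 6.41 and 7.05 in WT tumours. On the dimmer one they were 5.95, 6.03 and 6.58 in KO tumours, against 5.70, 6.19 and 6.52 in WT tumours. Both put KO tumour 6 highest. The probe sets went together across tumours with r = 0.61 and rho = 0.44 (permutation p = 0.0093 and 0.0763, n = 18). The brighter one had a difference of 0.10 (SE 0.15, 95% interval -0.21 to 0.41, limma adjusted p = 0.916) and the dimmer one 0.02 (SE 0.12). The difference of the brighter probe set was 0.01 without KO tumour 6, 0.02 without WT tumour 3 and 0.19 without WT tumour 2, and without both KO tumour 6 and WT tumour 3, an alternative added after seeing the data, it was -0.07.

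The remaining members act mainly in development. Prdm8 works in neurons beside the factor Bhlhe22, Prdm10 is needed in the early mouse embryo, Prdm15 maintains pluripotency, and Prdm16 sets brown fat identity and maintains blood stem cells. Prdm8 ran from 4.71 to 5.34 with a median of 4.94 in KO tumours, against 4.65 to 5.48 with a median of 4.96 in WT tumours, a difference of 0.02 (95% interval -0.20 to 0.24). Prdm10 ran from 5.22 to 5.80 with a median of 5.44 in KO tumours, against 5.11 to 5.79 with a median of 5.27 in WT tumours, a difference of 0.08 (95% interval -0.13 to 0.29), and 7 of 9 KO tumours were above the WT median. Prdm15 ran from 4.97 to 5.32 with a median of 5.13 in KO tumours, against 4.77 to 5.67 with a median of 5.05 in WT tumours, a difference of 0.02 (95% interval -0.19 to 0.24). For Prdm15, 2 WT tumours lay above and 3 below all KO tumours, and for Prdm10, 1 KO tumour lay above all WT tumours and 3 WT tumours below all KO tumours. Prdm16 ran from 5.02 to 5.39 with a median of 5.22 in KO tumours, against 5.01 to 5.85 with a median of 5.24 in WT tumours, a difference of -0.08 (95% interval -0.29 to 0.14), and without WT tumour 3 the difference was -0.01. The WT tumours were more spread for Prdm15 and Prdm16. The SD was 0.12 in KO tumours and 0.27 in WT tumours for Prdm15, and 0.12 in KO tumours and 0.26 in WT tumours for Prdm16. Without WT tumour 3, the WT SD was 0.18 for each, so 1 tumour made up much of that gap. Without WT tumour 3 the difference was 0.08 for Prdm8 and 0.09 for Prdm15. The Prdm10 difference was 0.03 without KO tumour 3, 0.05 without WT tumour 7, 0.14 without WT tumour 1 and 0.20 (SE 0.11) with the erythroid marker level in the model.

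**Figure D5:**
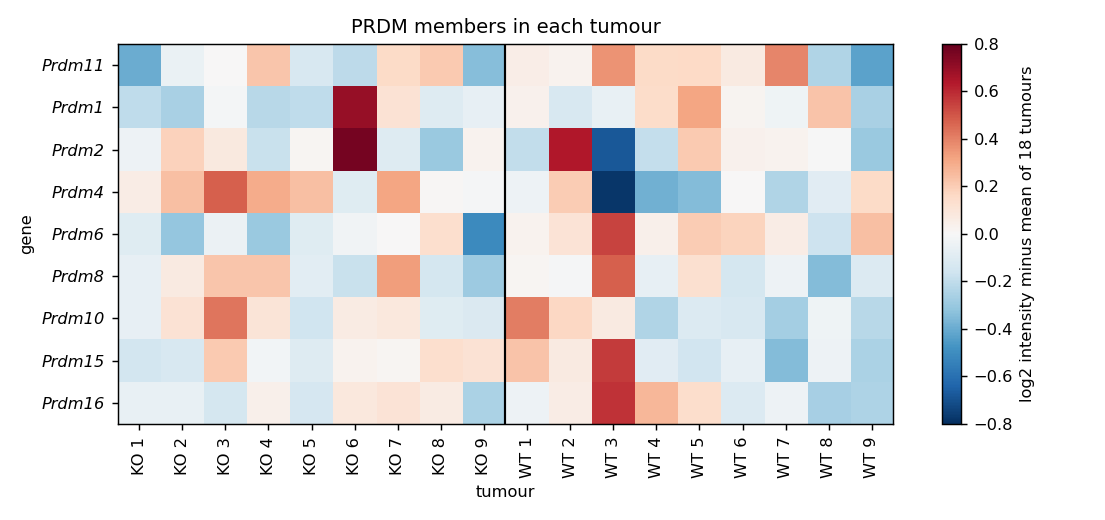
Log2 intensity of each PRDM member minus its mean over the 18 tumours, with KO tumours left of the black line and WT tumours right of it. WT tumour 3 holds the highest values of Prdm6, Prdm8, Prdm15 and Prdm16 and the lowest of Prdm2 and Prdm4, and KO tumour 6 the highest of Prdm1 and Prdm2.

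Whether members varied together was asked over the 36 pairs, again centred within genotype. By r, 0 of 36 pairs had an adjusted permutation p below 0.05, by rho 0, and 7 had an unadjusted permutation p below 0.05 by r. The share over pairs of all genes is not given here, so the 7 are not read as a trait of the family. The pair with the highest r was Prdm8 with Prdm16 (r = 0.68, rho = 0.50, adjusted permutation p = 0.0792 and 0.262), which went to r = 0.41 without WT tumour 3 and KO tumour 7. Prdm11 went with Prdm16 (r = 0.65, rho = 0.59) and with Prdm8 (r = 0.63, rho = 0.63), each with an adjusted permutation p of 0.0792 by r and with adjusted p by rho of 0.192 for Prdm16 and 0.174 for Prdm8. Without WT tumour 9 and KO tumour 1, the 2 farthest from the Prdm11 median, r was 0.63 for Prdm16 and 0.70 for Prdm8. Prdm10 went with Prdm15 (r = 0.60, rho = 0.63, adjusted permutation p = 0.0963 by r and 0.174 by rho), and r was 0.52 without WT tumour 1 and KO tumour 3. Prdm6 went with Prdm16 (r = 0.61, rho = 0.47, adjusted permutation p = 0.0792 by r and 0.262 by rho) and with Prdm8 (r = 0.53, rho = 0.25, adjusted permutation p = 0.172 by r and 0.786 by rho), and without KO tumour 9 and WT tumour 3, r was 0.29 for Prdm16 and 0.14 for Prdm8. Prdm4 ran against Prdm16 with r = -0.65 (rho = -0.51, adjusted permutation p = 0.0796 by r and 0.262 by rho), and with r = -0.34 without WT tumour 3 and KO tumour 6. Prdm8 lies in the dim range, and Prdm11 and Prdm16 lie just above it. Against the median of the olfactory receptor genes per tumour, r was 0.50 for Prdm11 (rho = 0.49), 0.59 for Prdm8 (rho = 0.30) and 0.44 for Prdm16 (rho = -0.02). The permutation p adjusted over the 9 members was 0.136 for Prdm11, 0.0945 for Prdm8 and 0.172 for Prdm16 by r, and 0.208 for Prdm11, 0.396 for Prdm8 and 0.968 for Prdm16 by rho. Without WT tumour 3 and KO tumour 4, r was 0.27 for Prdm11, 0.12 for Prdm8 and -0.25 for Prdm16.

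Of the family outside the 9 members, 4 genes were measured: Prdm9, which places meiotic recombination, Prdm13, of neuron specification, Prdm14, of germ cells and pluripotency, and Mecom, the Evi1 oncogene of blood stem cells. None passed the adjusted limma threshold, and 0 had an unadjusted p below 0.05. By mean level, Prdm13, Prdm14 and both Mecom probe sets lay inside the dim range set by the olfactory receptor genes. Their percentiles among those genes were 92.0 for Prdm13, 91.2 for Prdm14, and 83.4 and 74.2 for Mecom. Prdm9 lay above the range, at 98.8. Prdm9 ran from 5.41 to 6.10 in KO tumours, against 5.23 to 5.90 in WT tumours, a difference of 0.17 (SE 0.12). Prdm13 ran from 4.47 to 5.42 in KO tumours, against 4.44 to 5.17 in WT tumours, a difference of -0.06 (SE 0.12). Prdm14 ran from 4.20 to 5.36 in KO tumours, against 4.66 to 5.14 in WT tumours, a difference of -0.16 (SE 0.13), so that KO tumours lay on both sides of the WT range, 4 below it and 1 above. Mecom ran from 4.13 to 4.55 in KO tumours, against 4.17 to 4.61 in WT tumours, a difference of -0.09 (SE 0.08). Its second, dimmer probe set had a difference of -0.18 (SE 0.10), and the Mecom probe sets did not go together across tumours (r = 0.01, rho = 0.20, permutation p = 0.973 and 0.445, n = 18).

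Chromatin partners that PRDM proteins are known to recruit completed the comparison. Of 16 genes for such partners, 0 passed the adjusted limma threshold and 3 had an unadjusted p below 0.05, all higher in KO tumours, against 2.83% of all genes. Kdm1a, the histone demethylase LSD1, averaged 7.88 ± 0.21 in KO tumours and 7.54 ± 0.27 in WT tumours (SD, n = 9 each). Tle4, a Groucho corepressor, averaged 5.64 ± 0.23 in KO tumours and 5.30 ± 0.27 in WT tumours. Hdac2, a histone deacetylase, averaged 10.57 ± 0.27 in KO tumours and 10.10 ± 0.54 in WT tumours. Their differences were 0.34 for Kdm1a (SE 0.11), 0.34 for Tle4 (SE 0.12) and 0.47 for Hdac2 (SE 0.19), each with a limma adjusted p of 0.699. The median over the 16 was 0.15 and 12 were positive, against a median of -0.03 over all genes. Most of the 16 were brighter than the median gene. In a fit of the 9969 genes above it, the median was 0.01 and 460 were higher at an unadjusted limma p below 0.05. The part of the lower erythroid marker levels of KO tumours in these values was not tested.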

How the data were processed

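The authors deposited linear probe set intensity values, made with RMA per the submitters' processing notes; version, annotation and genome build are not given in the sources used here. They ran from 1.63 to 14996 and were transformed to log2 with no pseudocount. Of 35556 probe sets, 21789 had 1 gene symbol in the platform annotation, 1621 several and 12146 none; the brightest per gene by mean over 18 arrays was kept, which gave 19938 genes. KO and WT tumours were compared with limma 3.58.1 (lmFit, eBayes, no covariate) in R 4.3.3, with Benjamini-Hochberg adjustment over all genes and a threshold of 0.05. Prdm11 was also tested by exact permutation over 48620 splits, where the smallest possible p is 4.1e-05. Correlations used 100000 permutations of tumours within genotype. The model was tested on simulated data with independent normal noise, where it recovered 64.2% of 1.5-fold and 89.8% of 2-fold changes. All members differed by less than 1.5-fold between genotypes, and changes of that size were not simulated. Python 3.11.15 with scipy 1.17.1 did the rest.

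Named genes were all members, all other PRDM genes measured, the 3 of smallest p in each list, and the 5 genes most correlated with Prdm11 and Prdm1, passing over unannotated clones. Members and lists were chosen with earlier results of these data known. Alternatives were quantile and median scaling, probe set averaging, a filter on dim genes, array weights, trend and robust eBayes, the replicate block, left-out tumours and marker covariates. No depth applies to arrays, and 9 tumours per genotype limit the precision. Scan batches are not given in the sources used here.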

Additional observations from a re-analysis of the deposited data

Results flagged for a closer look

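Within a genotype, 4 values stood far from the other tumours by Dixon's criterion, out of 26 groups of 9 tumours tested over 13 PRDM genes, where chance gives about 1 in 20 groups. Prdm1 in KO tumour 6 was 5.05, with the next KO tumour at 4.47. Prdm2 in KO tumour 6 was 7.18, with the next at 6.60. Prdm10 in KO tumour 3 was 5.80, with the next at 5.49. Mecom in WT tumour 3 was 4.17, below the next WT tumour at 4.41. That holds for the brighter Mecom probe set only. On the dimmer one WT tumour 3 was the highest of all 18 tumours, at 4.59.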

How the results depend on the processing

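Prdm11 kept a negative difference in every alternative run, from -0.18 to -0.08 with 1 tumour left out, and its exact permutation p, run with both scalings, the mean over probe sets, the block and each left-out tumour, stayed above the threshold. With the replicate number as a block, Prdm11 had a difference of -0.12 (exact sign-flip permutation p = 0.23), 0 of 9 members passed the adjusted limma threshold and 2 were below the unadjusted one, so the block changed no call. Tumours with the same number share only that number: 4 of the 9 pairs had deviations that correlated above 0.1 (range -0.23 to 0.49), and 1 KO tumour correlated best with its own number. The number of members past the adjusted threshold was 0 in all 29 alternatives, and the number at an unadjusted p below 0.05 was 2 in each but the filter on dim genes: among genes above the median gene it was 1, where only Prdm2 and Prdm4 were tested. Prdm4 stayed positive (0.26 to 0.49) and Prdm6 negative (-0.31 to -0.23). Differences near 0 turned sign: Prdm8 to -0.005 without KO tumour 3 or 4, -0.02 without KO tumour 7 or WT tumour 8 (-0.021 at the lowest, 0.082 at the highest), and -0.0111 with the T cell covariate; Prdm15 to -0.004 without KO tumour 3, -0.02 without WT tumour 7, -0.009 without WT tumour 9 (highest 0.093) and -0.0031 with the T cell covariate; Prdm1 to 0.0211 with the T cell covariate; and Prdm2 to -0.0666 without WT tumour 3 and KO tumour 6. The 5 adjusted pairs of Prdm1 became 0 without KO tumour 6, which held the highest Prdm1 level. They stayed 5 without WT tumour 3, which leaves the same number of tumours, and 5 without centring. Over all genes, the 1 gene past the adjusted threshold became 0 with the replicate block, the erythroid covariate and several left-out tumours, and the 564 higher and 772 lower genes at an unadjusted limma p below 0.05 became 1117 and 1398 with array weights and 1167 and 1051 with the erythroid covariate. Left-out single tumours gave 375 to 935 higher and 618 to 937 lower. The causes of these moves were not tested further. Covariates and the setting without both tumours were chosen after the data were seen. Among the members, dim signal limits Prdm1, Prdm6 and Prdm8 most, and among the other PRDM genes Prdm13, Prdm14 and Mecom.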
